A study of Mus musculus with 12 samples.

Results

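The mouse Notch family has 4 receptors, Notch1, Notch2, Notch3 and Notch4, and 5 ligands, Dll1, Dll3, Dll4, Jag1 and Jag2. These 9 genes were taken by name from deposited tables of 52670 gene symbols, which held all 9. All 9 also passed the filter on low counts that left 17432 genes for testing. RNA was sequenced from the epithelium of the circumvallate papilla, which carries many of the taste buds of the posterior tongue, of adult Sox2GFP mice aged 11 to 12 weeks. Sox2 is a transcription factor of progenitor cells, and Sox2GFP mice carry a green fluorescent reporter of it. Dissociated cells were sorted by GFP brightness into 4 bins, Low, MedLow, HiMed and High, with 3 libraries in each bin. All 12 libraries therefore share genotype, age and tissue, cells without GFP were discarded, and no library comes from mice that lack the reporter. Each replicate was a pool of 7 to 13 mice, so a library holds many animals and a bin holds 3 such pools. The comparison asks how expression changes with Sox2 reporter brightness.

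Notch receptors sit in the cell membrane and bind ligands carried by neighbouring cells. Ligand binding exposes the receptor to cleavage by an ADAM protease and then by gamma-secretase, and the freed intracellular part joins the DNA-binding protein RBPJ in the nucleus to switch on genes such as those of the Hes and Hey families. Dll1, Dll4, Jag1 and Jag2 activate receptors on neighbouring cells, whereas Dll3 does not and is known as an inhibitor within its own cell. In stratified epithelia the pathway is known for its part in the move of cells out of the basal layer, and in taste buds for a part in the choice between cell types.

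Libraries held between 25670373 and 55583897 estimated counts. Levels are given in TPM (the deposited unit, scaled to library size, which allow for transcript length and so serve to compare genes) and in CPM (library-scaled counts after TMM, on which the tests and log2 fold changes rest). Errors are SDs over the 3 libraries of a bin. The sort was visible in its own genes: Sox2 averaged 55.9 ± 4.77, 76.5 ± 1.05, 145 ± 3.06 and 342 ± 16.4 TPM in Low, MedLow, HiMed and High, and the eGFP transcript 241 ± 10.1, 396 ± 24.6, 721 ± 65.1 and 1658 ± 67.9 TPM. The epithelial markers listed, Epcam, Cdh1, Krt8 and Krt18, were present, and 4 of 4 of them rose in High over Low, by unlike amounts. Krt8 and Krt18 are keratins of simple epithelia and do not stand for epithelium in general. The log2 fold change was 1.71 for Epcam and 2.06 for Krt8. Cdh1 had 251, 256 and 259 TPM in Low and 371, 367 and 403 TPM in High. Krt8 had 180, 212 and 263 TPM in Low, 102, 70.5 and 135 TPM in MedLow, and 992, 729 and 1437 TPM in High. A separate list of 6 basal epithelial markers fell in the same comparison, as given below.

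To show the stretches where transcription of the family starts, upstream sequence is given for the 3 genes that were lower in each brighter bin (Notch1, Dll1 and Jag2), for Notch4, which was highest in High, and for Jag1, which had its highest mean in HiMed. Each is the 250 bases before a RefSeq start site on GRCm38.p6, written 5′ to 3′ on the gene's strand. RefSeq windows were matched by symbol for all 9 members and gave 10 windows, since Dll1 has 2. Capitals mark CATTGT or ACAATG, a core motif of SOX factors read on both strands. TGGGAA or TTCCCA, a core motif of RBPJ, was searched in the same way, and no matches of the 2 motifs overlapped in the member windows.
Notch1, chr2:26503823-26504072, minus strand: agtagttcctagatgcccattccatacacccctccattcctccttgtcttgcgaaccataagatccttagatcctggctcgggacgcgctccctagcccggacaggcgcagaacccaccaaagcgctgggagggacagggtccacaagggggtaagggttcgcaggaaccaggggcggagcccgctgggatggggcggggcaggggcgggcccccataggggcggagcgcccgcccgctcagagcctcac
Dll1 (the second of its windows), chr17:15376933-15377182, minus strand: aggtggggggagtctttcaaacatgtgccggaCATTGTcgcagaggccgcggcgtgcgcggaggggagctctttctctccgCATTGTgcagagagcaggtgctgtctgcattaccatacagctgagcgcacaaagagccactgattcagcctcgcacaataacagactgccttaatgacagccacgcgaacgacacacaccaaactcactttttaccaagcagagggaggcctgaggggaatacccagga
Jag2, chr12:112929496-112929745, minus strand: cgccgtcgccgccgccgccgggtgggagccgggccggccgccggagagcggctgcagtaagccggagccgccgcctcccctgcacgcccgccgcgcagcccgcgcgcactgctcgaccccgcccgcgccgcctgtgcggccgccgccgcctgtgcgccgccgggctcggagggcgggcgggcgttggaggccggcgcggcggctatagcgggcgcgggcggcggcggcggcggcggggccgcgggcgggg
Notch4, chr17:34564045-34564294, plus strand: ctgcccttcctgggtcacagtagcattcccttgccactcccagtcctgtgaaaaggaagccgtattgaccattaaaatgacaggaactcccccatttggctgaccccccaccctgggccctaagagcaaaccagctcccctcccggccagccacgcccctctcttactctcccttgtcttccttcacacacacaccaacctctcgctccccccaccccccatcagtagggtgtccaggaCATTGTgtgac
Jag1, chr2:137116521-137116770, minus strand: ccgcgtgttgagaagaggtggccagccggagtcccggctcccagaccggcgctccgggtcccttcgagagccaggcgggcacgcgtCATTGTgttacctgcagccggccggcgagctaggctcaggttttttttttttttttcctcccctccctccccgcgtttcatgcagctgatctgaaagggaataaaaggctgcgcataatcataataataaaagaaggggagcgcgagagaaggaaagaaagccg
The SOX motif was in 3 of the 10 windows, those of Notch4, Jag1 and the one of Dll1 printed here, beside 10.7% of all 32851 mouse windows of this length. The RBPJ motif was in 0 of the 10 windows, beside 21.6% of all windows. Not printed are the windows of Notch2 and Notch3, also highest in High, Dll3, also highest in HiMed, Dll4 and the first of Dll1. None of these held either motif, so every window with the SOX motif is among those printed. A match is only a run of letters, and its absence says only that these letters are not in these 250 bases.

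All 9 members differed among the 4 bins (edgeR quasi-likelihood test over all 12 libraries, Benjamini-Hochberg adjusted p from 1.4e-08 for Notch1 to 0.0363 for Dll4). Of all 17432 genes tested, 41.8% did so. Mean CPM of Notch1, Dll1 and Jag2 was lower in each brighter bin, a pattern that 9.03% of genes tested showed together with a call among the bins. Mean CPM of Notch2 and Notch4 was higher in each brighter bin, which 8.30% of genes tested showed with a call. Notch3, Dll3, Dll4 and Jag1 followed neither order. In sorted bulk samples, fewer cells that express a gene and less of its RNA per cell cannot be told apart, and this holds for every value below.

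**Figure D1:**
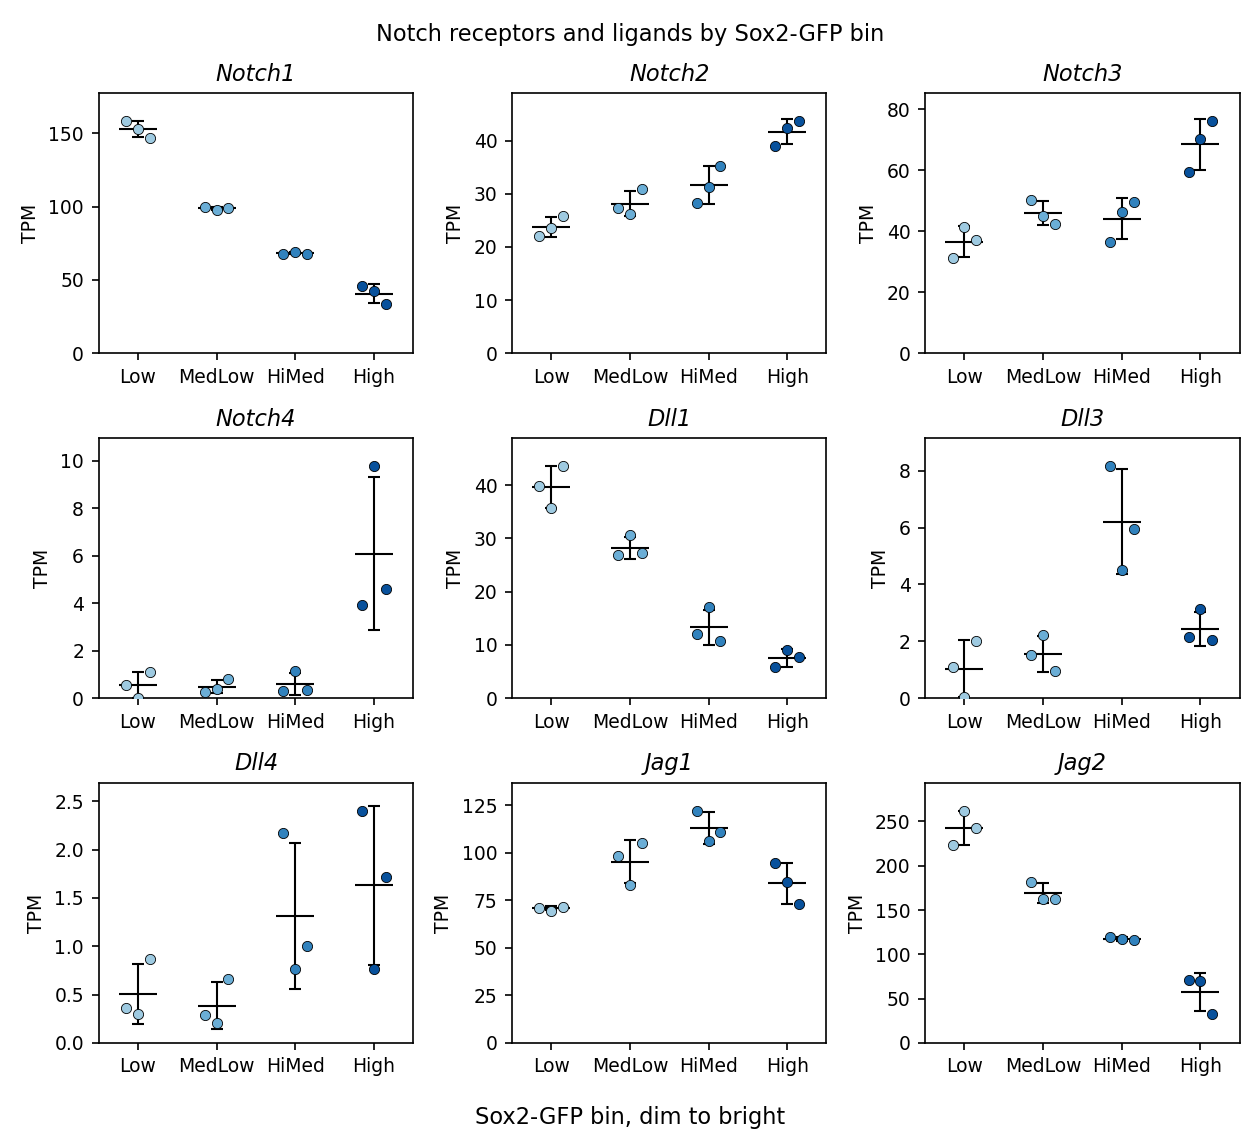
Level of each Notch receptor and ligand in TPM (vertical axes, linear and starting at 0) in the bins Low, MedLow, HiMed and High (horizontal axes), with a point for each of the 12 libraries, a bar at the mean of 3 libraries and a line for ± SD. Notch1, Dll1 and Jag2 step down towards High, Notch2 and Notch3 are highest in High, Notch4 averages 6.09 TPM in High and under 1 TPM elsewhere, Jag1 has its highest mean in HiMed, and Dll3 and Dll4 stay below 10 TPM.

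Notch1, the receptor best known from T lymphocytes and skin, was the most abundant receptor in the 3 dimmer bins. It had 158, 153 and 147 TPM in Low, 99.7, 97.7 and 99.1 TPM in MedLow, 68.0, 69.1 and 67.6 TPM in HiMed, and 46.0, 42.3 and 33.8 TPM in High. No library of a brighter bin reached any library of a dimmer one. The log2 fold change of Notch1 was -2.16 (SE 0.10) in High over Low, with an adjusted p of 3.5e-09 by edgeR, and each single step fell as well. The steps were -0.89 (SE 0.10, adjusted p = 3.1e-05) in High over HiMed, -0.66 (SE 0.10, adjusted p = 6.1e-04) in HiMed over MedLow and -0.61 (SE 0.10, adjusted p = 0.00175) in MedLow over Low. Notch1 was the only member that passed the test in all 6 comparisons of bins. Reads of 2 antisense genes on the older GRCm38 annotation, 0610009E02Rik and Gm13568, cannot be separated from those of Notch1 without strand, and these had at most 67 and 16 counts against 8975 to 42012 for Notch1.

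Notch2 and Notch3 went the other way and by less. Notch2, a receptor found in many epithelia, had 22, 23.6 and 25.8 TPM in Low, 27.4, 26.2 and 30.8 TPM in MedLow, 28.2, 31.3 and 35.3 TPM in HiMed, and 39.0, 42.3 and 43.6 TPM in High. The High libraries all lay above those of every other bin, while MedLow and HiMed overlapped. Notch2 rose in High over Low with a log2 fold change of 0.57 (SE 0.10, adjusted p = 5.9e-04, edgeR) and in High over MedLow with 0.31 (SE 0.10, adjusted p = 0.0302), the second of which was lost without High replicate 2 (adjusted p = 0.0795), High replicate 3 (0.0817), MedLow replicate 1 (0.0775) or MedLow replicate 2 (0.119). No step between neighbouring bins passed: 0.28 (SE 0.10, adjusted p = 0.0781) in High over HiMed, 0.04 (SE 0.10, adjusted p = 0.888) in HiMed over MedLow and 0.26 (SE 0.10, adjusted p = 0.206) in MedLow over Low. HiMed over Low was 0.30 (SE 0.10, adjusted p = 0.0575). Of 22 alternatives, 7 called Notch2 in High over HiMed and 9 in HiMed over Low. With the replicate number as a block the adjusted p was 0.0201 in High over HiMed (log2 fold change 0.28) and 0.0163 in HiMed over Low (0.29), and with scaling by library size only it was 0.0323 and 0.0243.

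Notch3, best known from smooth muscle of arteries, had 31.2, 41.3 and 37.2 TPM in Low, 50.2, 45.1 and 42.5 TPM in MedLow, 36.6, 46.4 and 49.6 TPM in HiMed, and 59.6, 70.2 and 76.1 TPM in High. High stood above every other library, HiMed overlapped with both dimmer bins, and MedLow lay above Low. Notch3 rose in High over Low by a log2 fold change of 0.60 (SE 0.12, adjusted p = 0.00126, edgeR), in High over HiMed by 0.45 (SE 0.12, adjusted p = 0.0174) and in High over MedLow by 0.34 (SE 0.12, adjusted p = 0.0401). High over HiMed was lost without High replicate 3 (adjusted p = 0.0645) or HiMed replicate 1 (0.0554). High over MedLow was lost without any of High replicate 2, High replicate 3, the 3 MedLow libraries or Low replicate 3, at adjusted p from 0.0550 to 0.121. Among the 3 dimmer bins Notch3 passed no test, with log2 fold changes of -0.11 (adjusted p = 0.665) in HiMed over MedLow, 0.26 (adjusted p = 0.297) in MedLow over Low and 0.15 (adjusted p = 0.435) in HiMed over Low.

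Notch4, a receptor best known from endothelium, was rare outside High. Its estimated counts were 11, 1 and 21 in Low, 4, 24 and 36 in MedLow, 50, 46 and 79 in HiMed and 428, 906 and 839 in High. In TPM it had 0.551, 0.00951 and 1.11 in Low, 0.270, 0.379 and 0.791 in MedLow, 0.311, 1.13 and 0.354 in HiMed and 3.91, 9.78 and 4.58 in High. Every High library was above every other library on either scale. Notch4 rose in High over HiMed by a log2 fold change of 3.47 (SE 0.64, adjusted p = 0.00162, edgeR), in High over MedLow by 4.71 (SE 0.69, adjusted p = 1.1e-04) and in High over Low by 5.58 (SE 0.73, adjusted p = 3.5e-05).

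The size of the Notch4 change depended on the scale and on the constant added before the log. On log2(TPM + 1), with limma, it was 2.16 in High over Low, 2.19 in High over MedLow and 2.10 in High over HiMed, all still past the threshold. On log2(TPM + 0.1) it was 3.69 in High over Low and 3.22 in High over HiMed, and both passed. The amount of TPM that a count of Notch4 was worth, relative to the median gene of the same library, varied 11.7-fold between libraries, at 0.496, 0.772 and 0.339 in High and 3.15, 0.346 and 2.93 in Low, where a higher value means counts assigned to shorter transcripts. The same ratio varied 4.21-fold for Dll4, 2.33-fold for Dll3 and between 1.05-fold and 1.44-fold for the other 6 members. The step of HiMed over Low in Notch4, 2.11 (SE 0.68, adjusted p = 0.0362), was lost in the TPM fits, in a fit of those 6 libraries alone and without any of 7 single libraries, and rests on fewer than 100 counts in each library. The steps of HiMed over MedLow (1.24, SE 0.64, adjusted p = 0.244) and MedLow over Low (0.87, SE 0.69, adjusted p = 0.634) did not pass.

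Of 10 endothelial markers listed, the summed level was 26.7 to 32.5 TPM in High and 4.45 to 10.7 TPM in Low, and 2 of the 6 that were tested rose in High over Low. Vwf made up most of that sum, with 24.1, 20.1 and 29.8 TPM in High and 2.35, 4.09 and 6.58 TPM in Low, a log2 fold change of 2.11. Several endothelial genes were at or near 0: Emcn had no count in any library, Kdr had none in High, and Cdh5 reached at most 0.130 TPM in High and had no count in the other bins. Others were present at low levels: Tek had 10.1, 4.70 and 5.96 TPM in HiMed and 3.43, 2.46 and 1.63 TPM in High, Cldn5 had 1.69, 1.92 and 0 TPM in High and no count in Low, and Pecam1 reached 3.40 TPM in a HiMed library. Of 6 markers of mural cells, in which Notch3 is best known, 4 were tested and 2 fell in High over Low, Cspg4 and Acta2, which made up nearly all of a summed level of 3.19 to 7.01 TPM in High and 41.3 to 48.5 TPM in Low. Kcnj8 had 1.1, 0.691 and 0.682 TPM in High and 0.132, 0.0866 and 0 TPM in Low. Rgs5 had no count in High, HiMed or Low, and Pdgfrb had none in High.

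Jag2 had the highest mean of the 9 members in the 3 dimmer bins, although its HiMed libraries lay within the range of Jag1. This ligand, found in the basal layer of many stratified epithelia, had 224, 262 and 243 TPM in Low, 182, 163 and 162 TPM in MedLow, 120, 117 and 116 TPM in HiMed, and 70.9, 69.5 and 33.0 TPM in High. The bins did not overlap at any step. Jag2 fell in High over Low with a log2 fold change of -2.20 (SE 0.18, adjusted p = 4.7e-07, edgeR), in High over HiMed with -1.28 (SE 0.18, adjusted p = 1.8e-04), in High over MedLow with -1.74 (SE 0.18, adjusted p = 4.6e-06) and in HiMed over Low with -0.92 (SE 0.18, adjusted p = 0.00158). The steps of HiMed over MedLow, -0.46 (SE 0.17, adjusted p = 0.109), and MedLow over Low, -0.47 (SE 0.17, adjusted p = 0.162), did not pass. Without High replicate 3, whose level was less than that of the other High libraries, the adjusted p of these steps was 6.1e-04 and 9.7e-04.

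Dll1, an activating ligand of the Delta type, had 39.9, 35.7 and 43.6 TPM in Low, 26.9, 30.6 and 27.2 TPM in MedLow, 12.0, 17.1 and 10.8 TPM in HiMed, and 5.81, 9.10 and 7.67 TPM in High. Each bin lay wholly below the dimmer one. Dll1 showed the largest fall of the 9 members in High over Low, with a log2 fold change of -2.77 (SE 0.17, adjusted p = 2.9e-08, edgeR). It fell by 1.11 on the log2 scale in High over HiMed (SE 0.16, adjusted p = 2.7e-04) and by 1.16 in HiMed over MedLow (SE 0.16, adjusted p = 3.1e-04). MedLow over Low was -0.50 (SE 0.16, adjusted p = 0.0826) and passed with the replicate block (-0.51, adjusted p = 0.0297).

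Jag1, the activating ligand whose mutation causes Alagille syndrome in humans, had its highest means in the middle of the range. It had 70.8, 69.6 and 71.7 TPM in Low, 98.1, 83.0 and 105 TPM in MedLow, 122, 106 and 111 TPM in HiMed, and 94.5, 84.6 and 73.0 TPM in High. In TPM the lowest HiMed library was just above the highest MedLow library, and High lay above Low by a small margin. In CPM HiMed and MedLow overlapped, and HiMed over MedLow, with a log2 fold change of 0.11 (SE 0.09, adjusted p = 0.527, edgeR), did not pass in the count fit or under any of the 22 alternatives. In CPM the means were 193 ± 11.2 in Low, 255 ± 16.5 in MedLow, 275 ± 16.1 in HiMed, then 191 ± 20.4 in High (n = 3 each), so that High and Low changed places between the scales. Jag1 fell in High over HiMed (log2 fold change -0.53, SE 0.09, adjusted p = 9.4e-04, edgeR) and rose in HiMed over Low (0.51, SE 0.09, adjusted p = 0.00103). High over Low was -0.02 (SE 0.09, adjusted p = 0.881), and 0.24 on log2(TPM + 1). MedLow over Low rose by 0.40 (SE 0.09, adjusted p = 0.0173), which was lost in the TPM fits and without MedLow replicate 1 (adjusted p = 0.0814), MedLow replicate 3 (0.0669), Low replicate 2 (0.0515) or Low replicate 3 (0.0863). High over MedLow fell by 0.42 on the log2 scale (SE 0.09, adjusted p = 0.00220), also lost in the TPM fits (adjusted p from 0.227 to 0.311).

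Dll3 and Dll4 were scarce. Dll3, the inhibitory ligand, had 1.10, 0.0246 and 2.00 TPM in Low, 1.51, 2.22 and 0.964 TPM in MedLow, 8.16, 4.50 and 5.96 TPM in HiMed, and 2.15, 3.13 and 2.04 TPM in High. Its estimated counts were 34, 1 and 96 in Low, 99, 73 and 60 in MedLow, 376, 261 and 475 in HiMed and 134, 247 and 143 in High. HiMed was above every library of the other bins. Dll3 rose in HiMed over Low by a log2 fold change of 2.85 (SE 0.73, adjusted p = 0.0115, edgeR), lost without Low replicate 1 (adjusted p = 0.0517), and 4.18 without Low replicate 3. HiMed over MedLow was 2.06 (SE 0.71, adjusted p = 0.0742), High over HiMed -1.24 (SE 0.68, adjusted p = 0.225) and High over Low 1.60 (SE 0.71, adjusted p = 0.0874). High over Low passed without Low replicate 3 (2.93, adjusted p = 0.00568), the Low library with the most Dll3 counts. HiMed over MedLow passed in a fit of those 6 libraries alone (adjusted p = 0.00131) and without Low replicate 2 (0.00523), the library with 1 count. The difference among the 4 bins was lost without HiMed replicate 3 (adjusted p = 0.0574).

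Dll4, the activating ligand of sprouting vessels, had 0.359, 0.300 and 0.866 TPM in Low, 0.292, 0.204 and 0.662 TPM in MedLow, 2.17, 0.765 and 0.999 TPM in HiMed, and 2.40, 0.765 and 1.72 TPM in High. In estimated counts it had 37, 18 and 79 in Low, 28, 5 and 31 in MedLow, 121, 65 and 124 in HiMed and 218, 88 and 176 in High. The 2 brighter bins overlapped with each other, and so did the 2 dimmer ones, and a library of each brighter bin lay within the range of Low. Dll4 rose in High over MedLow, with a log2 fold change of 2.59 (SE 0.70, adjusted p = 0.0101, edgeR), and in no other pair of bins. On log2(TPM + 1) this value was 0.89, and the call was lost there when no filter was used (adjusted p = 0.0655). HiMed over MedLow, 2.05 (SE 0.69, adjusted p = 0.0710), passed with the replicate block (2.32, adjusted p = 0.0195). The antisense gene Gm14207 had up to 31 counts in a library, not small beside the 5 to 218 counts of Dll4, so the level of Dll4 is uncertain to that extent. Overlapping genes of Notch2 (Gm42820) and Notch3 (Gm17276) had at most 89 and 36 counts. A930024N18Rik, antisense to 867 of the 4219 exon bases of Dll1, was not among the genes in the deposited counts. Whether reads of it were counted as Dll1 cannot be told. The difference of Dll4 among the 4 bins was lost in the TPM fits (adjusted p from 0.0642 to 0.123) and without any of 8 single libraries (0.0515 to 0.10).

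**Figure D2:**
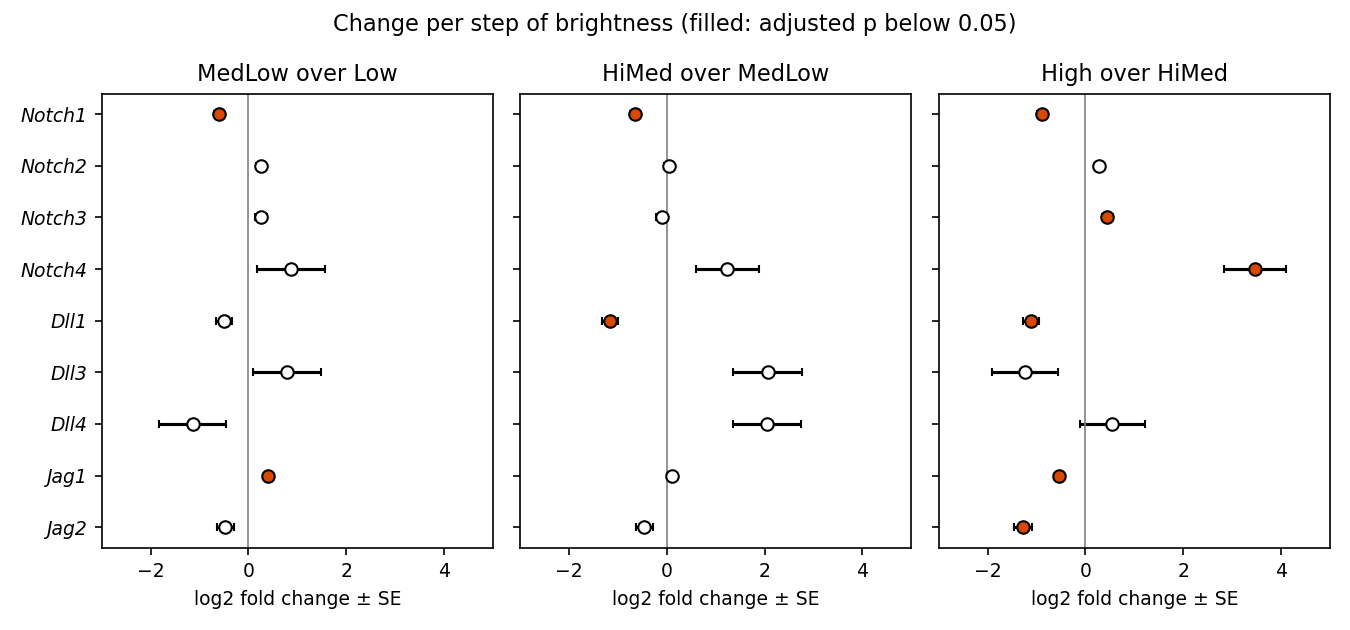
Log2 fold change (horizontal axes) of each receptor and ligand for MedLow over Low, HiMed over MedLow and High over HiMed, with bars of ± SE from the edgeR fit over all 12 libraries and filled points where the adjusted p was below 0.05. Notch1 lies below 0 at each step, Notch4 is at 3.47 in High over HiMed, and Jag1 is at 0.40 in MedLow over Low and at -0.53 in High over HiMed.

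The opposite changes of the receptors altered their proportions. Notch1 made up 71.5 ± 2.72% of receptor TPM in Low, 57.0 ± 0.777% in MedLow, 47.4 ± 3.49% in HiMed, then 26 ± 4.81% in High (SD, n = 3). Notch3 made up 17.1 ± 2.14%, 26.5 ± 1.88%, 30.4 ± 2.63% and 43.6 ± 4.10% in the same order and was the most abundant receptor in High. The share of Notch2 was 11.1 ± 0.964%, 16.2 ± 1.34%, 21.8 ± 1.11% and 26.5 ± 0.967%, and Notch4 reached 3.82 ± 1.84% in High. Summed receptor TPM varied less, at 214 ± 3.95 in Low, 173 ± 4.11 in MedLow, 145 ± 10.3 in HiMed, then 157 ± 8.12 in High.

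Among the ligands, Jag2 made up 68.4 ± 2.52% of ligand TPM in Low, 57.3 ± 2.28% in MedLow, 46.8 ± 1.25% in HiMed, then 36.7 ± 7.47% in High. Jag1 made up 32.4 ± 2.93% in MedLow, 44.9 ± 1.51% in HiMed and 55.5 ± 5.98% in High, and the ratio of Jag2 to Jag1 was 3.43 ± 0.304 in Low, 1.78 ± 0.219 in MedLow, 1.04 ± 0.0597 in HiMed, then 0.675 ± 0.197 in High. Dll1 held 5.09 ± 1.64% in High and 11.2 ± 1.32% in Low. Dll3 and Dll4 each held at most 2.45% on average in any bin. Summed ligand TPM was 355 ± 16.6 in Low, 294 ± 14.9 in MedLow, 252 ± 10.5 in HiMed, then 153 ± 31.5 in High. The ratio of summed ligand to summed receptor TPM was 1.66 ± 0.0648, 1.70 ± 0.0466 and 1.75 ± 0.203 in the 3 dimmer bins in that order, and 0.980 ± 0.223 in High. These proportions are descriptions without a test, and 20 of the 36 bin shares moved by more than 1 SD when CPM was used in place of TPM.

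**Figure D3:**
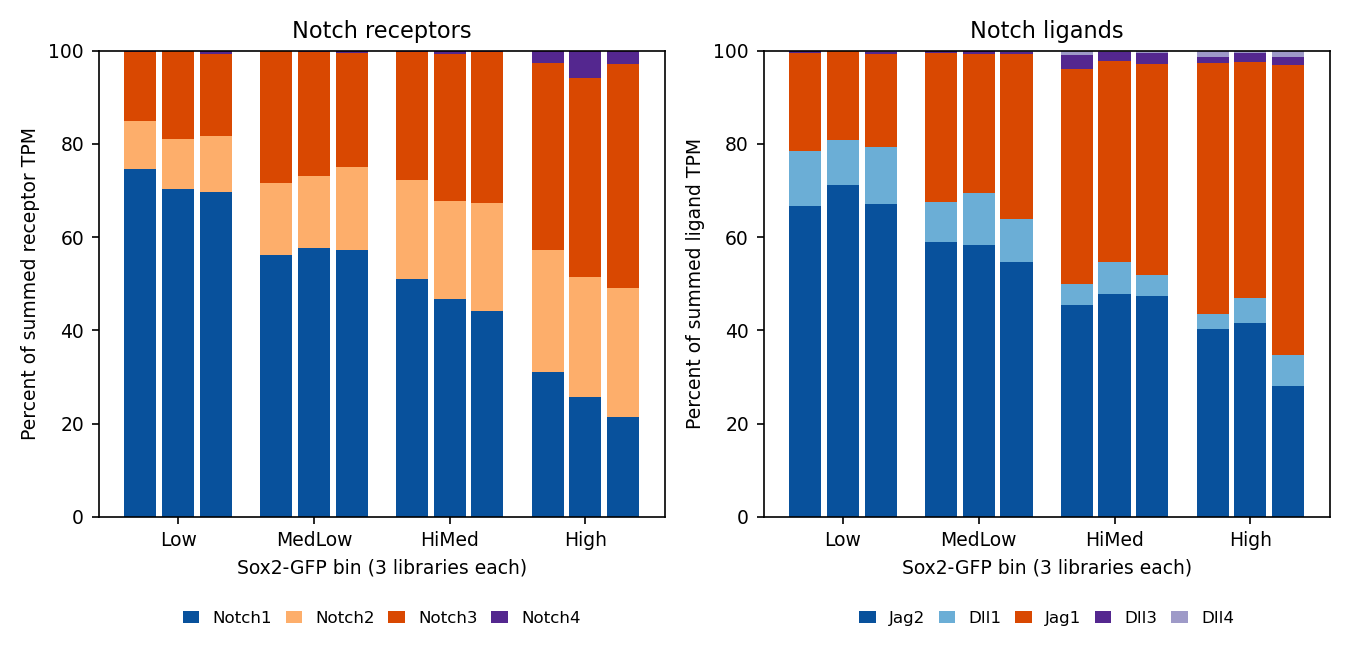
Make-up of the receptors (left) and of the ligands (right) in each bin, as percent of the summed receptor or ligand TPM, with a stacked column for each of the 12 libraries. On average Notch1 takes 26% of receptor TPM in High and 71.5% in Low, and Jag2 takes 36.7% of ligand TPM in High and 68.4% in Low.

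High over Low had the receptors split 3 higher (Notch2, Notch3 and Notch4) to 1 lower (Notch1). The ligands had 0 higher and 2 lower (Dll1 and Jag2), and 1 higher and 2 lower either at an unadjusted p under 0.05 or by DESeq2. Of all genes tested, 41.4% were called there, 20.1% higher and 21.2% lower. The libraries of High and Low did not overlap in CPM for 7 of the 9 members and for 52.5% of genes tested. High over HiMed had 2 members higher (Notch3 and Notch4) and 4 lower (Notch1, Dll1, Jag1 and Jag2), where 22.1% of genes tested were called, 10.6% higher and 11.6% lower, and the median member log2 fold change was -0.53 beside -0.01 over all genes.

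In HiMed over MedLow, 0 members were higher and 2 lower (Notch1 and Dll1), where 13.5% of genes tested were called, 7.38% higher and 6.12% lower. At an unadjusted p under 0.05 there were 2 higher and 3 lower, and by DESeq2 2 higher and 2 lower. In MedLow over Low, 1 member was higher (Jag1) and 1 lower (Notch1), where 6.60% of genes tested were called, 4.08% higher and 2.52% lower. High over MedLow had 4 higher (Notch2, Notch3, Notch4 and Dll4) and 4 lower (Notch1, Dll1, Jag1 and Jag2), beside 38.0% of genes tested called, 18.2% higher and 19.8% lower. HiMed over Low had 3 higher (Notch4, Dll3 and Jag1) and 3 lower (Notch1, Dll1 and Jag2), beside 23.6% called, 12.4% higher and 11.3% lower. These comparisons share libraries and are not independent of each other. On log2(TPM + 1) the median of all genes shifted by 0.14 in High over Low and 0.16 in High over MedLow relative to the count fit, and the genes called in High over Low then numbered from 4022 to 4355 higher and from 2072 to 2192 lower over the TPM fits, against 3512 higher and 3702 lower in the count fit.

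Each member was set beside all tested genes that reached a mean of 10 CPM in a bin by Pearson's r of log2 CPM over the 12 libraries, which share their sort, so that r describes only a like course over brightness. The genes most like Notch1 were Unc5b (r = 0.993), Plek2 (0.992) and Dcn (0.992), the last a collagen-binding proteoglycan. Those most like Jag2 were Col17a1 (0.997), a collagen of basal keratinocytes, Arhgef10 (0.996) and Icam1 (0.994), and those most like Dll1 were Adarb1 (0.996), Igfbp3 (0.992) and Cspg4 (0.991). Among the genes closest to Notch2 were Duox2 (0.974) and Ephx3 (0.964), and among those closest to Notch3 were Fyco1 (0.947), Ankrd13a (0.947) and Niban2 (0.938). Notch4 ran closest to Akr1a1 (0.986), Sccpdh (0.983) and Krt20 (0.979), a keratin of simple epithelia. Jag1 ran closest to Efemp1 (0.959), Gli2 (0.959), a transcription factor of Hedgehog signalling, and Ammecr1 (0.955). Dll3 ran closest to Padi4 (0.949), Pcolce2 (0.937) and Gprc5b (0.923), and Dll4 to Pip5k1b (0.944), Neurl1a (0.938) and Ppfia4 (0.937). Between members, r was 0.97 for Notch1 with Dll1, 0.97 for Notch1 with Jag2, 0.90 for Notch2 with Notch3 and -0.95 for Notch4 with Jag2.

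Markers of other cell states moved with these genes. Of 6 basal epithelial markers, 6 fell in High over Low, with log2 fold changes of -1.81 for Krt5, -4.21 for Krt14 and -0.94 for Trp63. Their summed level was 26568 to 27014 TPM in Low, 16320 to 18142 in MedLow, 9308 to 9653 in HiMed and 3570 to 5448 in High. That is the same order as Notch1, Dll1 and Jag2, and most of the sum came from Krt5, Krt14 and Krt15. Trp63 did not follow it, with 316, 315 and 320 TPM in Low, 371, 325 and 364 TPM in HiMed, and 205, 229 and 135 TPM in High. Of 7 fibroblast markers 3 were tested, 1 rising and 1 falling. Dcn carried their sum of 4.13 to 13.0 TPM in High and 548 to 603 TPM in Low, with 11.4, 8.79 and 2.50 TPM in High and 547, 602 and 580 TPM in Low. Pdgfra had 1.48, 2.18 and 1.5 TPM in High and 0.646, 0.884 and 0.810 TPM in Low, and Lum had no count in any library. The rest of this list was near 0 in Low. Col1a1 had 0.168, 0.441 and 0.143 TPM there, Col3a1 0.0449, 0.239 and 0.788 TPM, Col1a2 at most 0.0681 TPM and Postn at most 0.0343 TPM. Suprabasal markers summed to 7989 to 9539 TPM in Low, 25512 to 26385 TPM in MedLow, 8457 to 24714 TPM in HiMed, then 1548 to 2368 TPM in High, with nearly all of it from Krt13 and Krt4. Of the same list Ivl had 21.9, 29.5 and 33.9 TPM in High and 1.96, 3.28 and 5.08 TPM in Low, and rose (log2 fold change 2.85). Taste cell markers moved as well. Type I markers summed to 178 to 333 TPM in High and 33.6 to 38.6 TPM in Low, with 3 of 4 higher (Entpd2, Kcnj1 and Oxtr) and Slc1a3 lower. Taste precursor markers summed to 247 to 319 TPM in High and 129 to 145 TPM in Low, with 3 of 5 higher (Shh, Prox1 and Foxa2) and 2 lower (Foxa1 and Nkx2-2). Shh, a signal made by these precursors, had 88.3, 78.5 and 82.8 TPM in High and 0.117, 0 and 0.117 TPM in Low. Foxa1 had 46.9, 42.0 and 56.3 TPM in High and 111, 105 and 101 TPM in Low, where it made up most of the sum. Nkx2-2 had 4.75, 5.27 and 1.29 TPM in High and 8.95, 9.24 and 20.6 TPM in Low. Of 9 type II markers 6 were lower and 0 higher, and of 7 type III markers 2 were higher and 4 lower. Of 7 von Ebner gland markers 4 fell in High over Low and 0 rose. Dmbt1 had 158, 351 and 270 TPM in Low and 0, 6.54 and 1.52 TPM in High. Ltf had 228, 395 and 366 TPM in Low and 541, 705 and 915 TPM in High. Of 5 tested markers of Schwann cells and neurons 3 fell and 0 rose. Sox10 had 3.71, 3.12 and 5.47 TPM in Low and no count in HiMed. Of 4 tested leukocyte markers 1 rose and 1 fell. The part of any of these cell types, endothelial and mural cells included, in the differences of the Notch genes was not tested.

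The rest of the pathway was described through 7 lists with 58 genes, of which 54 were tested. In High over Low, 18 were higher, 8 lower and 28 not called, so that 48.1% of them were called beside 41.4% of all genes tested. In High over HiMed 11 were higher and 6 lower (31.5% called beside 22.1%), in HiMed over MedLow 8 and 3 (20.4% beside 13.5%), and in MedLow over Low 3 and 1 (7.41% beside 6.60%). In High over MedLow 17 were higher and 8 lower (46.3% beside 38.0%), and in HiMed over Low 8 and 3 (20.4% beside 23.6%). The median log2 fold change in High over Low ran from -1.58 for the non-canonical ligands to 2.45 for the Hes and Hey genes, beside -0.01 over all genes tested. The first of these medians rests on only 3 tested genes. Of the 8 tested genes behind the second, 3 were called. That list also holds genes near the floor: Hes2, Hes7 and Hey2 averaged at most 0.871 CPM in any bin.

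**Figure D4:**
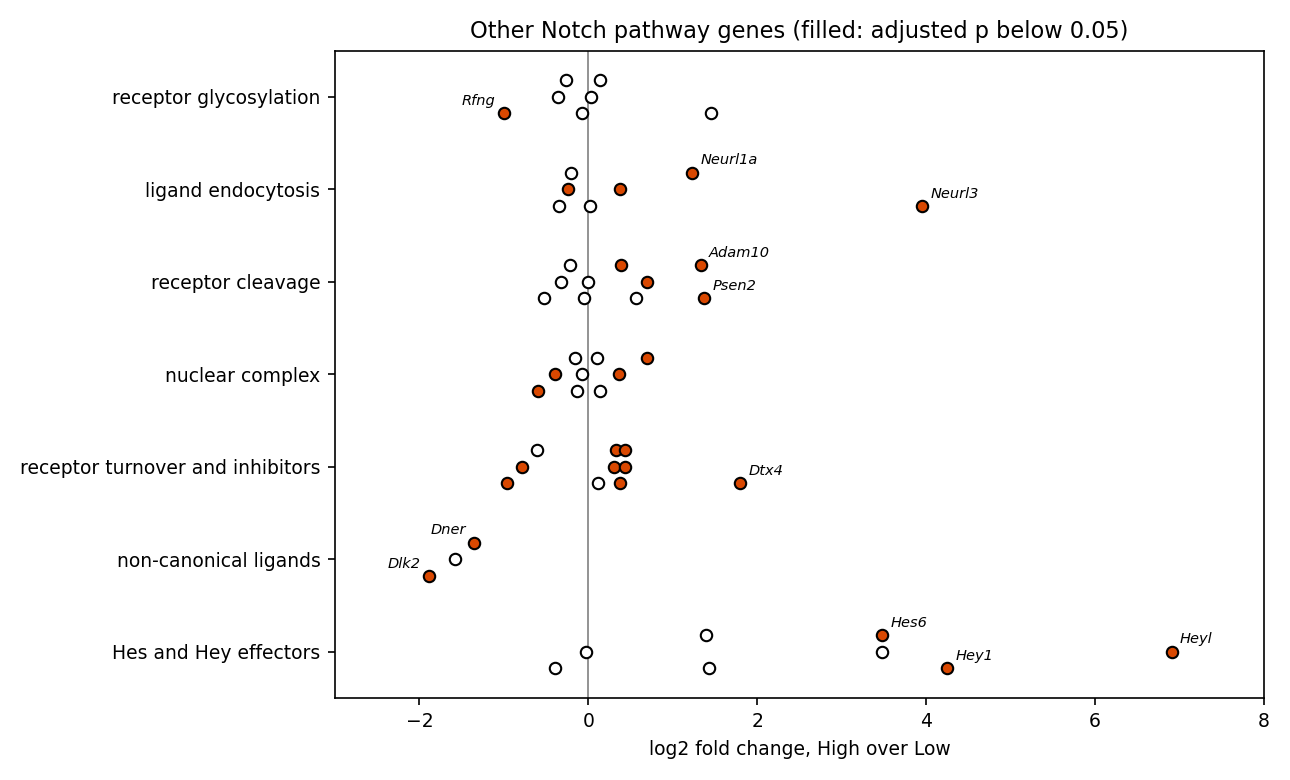
Log2 fold change of High over Low for the tested genes of 7 Notch pathway lists, with a point for each gene, filled where the adjusted p was below 0.05. Heyl at 6.91, Hey1 at 4.25, Neurl3 at 3.95 and Hes6 at 3.48 lie farthest to the higher side among the genes that passed, and Dlk2 at -1.89 lies lowest among them.

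On the ligand side, 3 of the 7 genes listed under ligand endocytosis, the step that lets a bound ligand pull on its receptor, rose in High over Low. In the same list 1, Epn1 (-0.24, adjusted p = 0.0320), fell, though in TPM it had 135 ± 6.99 in High and 137 ± 6.81 in Low. This made 57.1% called, beside 41.4% of all genes tested. Mib1, Mib2 and Neurl1b were not called, and Mib1 had 155 ± 7.38 CPM in High and 152 ± 10.6 CPM in Low. Neurl3, a ubiquitin ligase of the Neuralized family, had 19.1 ± 4.73 TPM in High and 1.02 ± 0.255 TPM in Low (log2 fold change 3.95, SE 0.38, adjusted p = 2.0e-06, edgeR). Neurl1a rose by 1.23 (SE 0.26, adjusted p = 0.00146), and Epn2, an epsin, by 0.38 (adjusted p = 0.0143). Of 3 tested non-canonical ligands 2 fell (66.7% called), Dlk2 (-1.89, adjusted p = 6.5e-05) and Dner (-1.35, adjusted p = 0.00129). On the receptor side, 1 of 7 glycosylation genes fell and none rose, 14.3% called, fewer than the 41.4% of all genes tested. The gene that fell, Rfng, which adds sugar to Notch receptors, had 41.8 ± 6.51 TPM in High and 71.6 ± 3.85 TPM in Low (-1.0, SE 0.11, adjusted p = 5.1e-06).

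Of 10 receptor cleavage genes 4 rose in High over Low and 0 fell, 40.0% called, close to the 41.4% of all genes tested. Adam10, the protease of the first cut after ligand binding, had 41.2 ± 5.91, 45.9 ± 2.16, 75.8 ± 8.86 and 127 ± 12.2 TPM in Low, MedLow, HiMed and High, with a log2 fold change of 1.33 in High over Low (SE 0.08, adjusted p = 1.9e-08, edgeR). The gamma-secretase subunits Psen2 (1.37, adjusted p = 3.7e-04) and Ncstn (0.70, adjusted p = 3.8e-06) rose with it. In the nuclear complex 2 of 9 rose, Kat2b (0.69) and Maml3 (0.36), and 2 fell, Maml2 (-0.59) and Spen (-0.39). That was 44.4% called, close to the same share of all genes. In TPM Spen had 40.2 ± 10.1 in High and 41.0 ± 6.12 in Low, and Maml2 had 5.73 ± 0.667 and 7.05 ± 0.269. Rbpj itself had 17.7 ± 0.907 TPM in High and 14.9 ± 1.65 TPM in Low (log2 fold change 0.14, SE 0.09, adjusted p = 0.256). Among 10 genes of receptor turnover and inhibition 6 rose and 2 fell, 80.0% called beside 41.4% of all genes tested. Dtx4, a Deltex ubiquitin ligase, rose by 1.80 (adjusted p = 6.0e-05), Fbxw7, a ligase subunit that marks the cleaved receptor for degradation, by 0.44 (adjusted p = 0.0108), while Dtx2 fell by 0.96 on the log2 scale (adjusted p = 1.6e-05) and Nrarp, an inhibitor that is itself a Notch target, by 0.78 (adjusted p = 0.00173).

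Of the 8 Hes and Hey genes tested, 3 rose in High over Low and 0 fell, 37.5% called beside 41.4% of all genes tested. Heyl had 17.4 ± 5.49 TPM in High and 0.114 ± 0.117 TPM in Low (log2 fold change 6.91, SE 0.51, adjusted p = 1.7e-07, edgeR), on counts that reached only 27 in Low. Hey1 had 107 ± 17.8 TPM in High and 5.72 ± 2.61 TPM in Low (4.25, SE 0.19, adjusted p = 1.9e-09). Hes6, which unlike the other Hes genes is known to oppose Hes1, had 542 ± 7.87 TPM in High and 42.0 ± 4.63 TPM in Low (3.48, SE 0.12, adjusted p = 3.1e-10). Hes5 differed among the bins (adjusted p = 0.0145) but not in High over Low (3.48, SE 1.45, adjusted p = 0.0727). Hes1, the most widely used Notch readout, had 672 ± 113 TPM in High and 597 ± 129 TPM in Low (log2 fold change -0.03, adjusted p = 0.928).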

How the data were processed

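RNA-seq was measured in 12 libraries, 3 from each of 4 GFP bins. The deposited files give 2 units per gene, estimated counts and TPM, which the authors made with Salmon 1.4.0, per the submitters' processing notes. Those notes also list DESeq2 1.28.1 and the mm39 build. The strand setting of the counting is not given in the sources used here. From 8.24% to 13.0% of the count values in a library were not whole, and all were rounded. The filter was edgeR's filterByExpr (minimum count 10). It kept 17432 of 52670 symbols, and the rest held 0.0340% of counts. Bins were compared with edgeR 4.0.16 (R 4.3.3) by quasi-likelihood F tests with TMM scaling, 1 term per bin and all 12 libraries (8 residual degrees of freedom, common biological coefficient of variation 0.366). Each comparison had its own Benjamini-Hochberg adjustment across the tested genes, with calls at 0.05. SE is the size of the log2 fold change divided by the square root of F. The fit was tested on simulated data with known changes.

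The text names all 9 members, up to 4 genes of each pathway list (those called among the bins with the largest change in High over Low) with Rbpj, and for each member the 3 genes of highest r (among genes with a mean of at least 10 CPM in a bin, on log2 of CPM + 0.5). Some genes that this rule names are not reported here. Hes1, Hes2, Hes7, Hey2, Epn1, Mib1, Mib2 and the cell type markers with values were named after their values were seen. The members and lists were chosen with earlier results of these data known. TMM-scaled CPM, shares and ratios were computed here from the deposited counts and TPM.

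Replicates are separate pools of mice, and same-numbered libraries were taken as 1 pool sorted into bins, from the series' design text. Over 9650 genes, deviations from bin means were correlated between libraries of different bins. They correlated at 0.0765 to 0.364 in the 18 pairs with the same number (16 above 0.1) and at -0.296 to 0.0536 in the 36 remaining pairs. For 12 of 12 libraries, the single most correlated library of another bin had the same number. Libraries of a bin differed beyond counting noise (chi-square per degree of freedom 27.5 to 92.4), so none was treated as a repeat. Alternatives were other scalings and filters, DESeq2 1.42.0, limma 3.58.1 on log2(TPM + 1) and log2(TPM + 0.1), a replicate block, fits of 6 libraries alone and leaving out each library. Promoter windows are RefSeq GRCm38.p6 and overlaps between genes come from a GRCm38 annotation, used for names and upstream letters only, since no mm39 genome was used here.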

Additional observations from a re-analysis of the deposited data

How the results depend on the processing

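The calls and directions of Notch1 in every comparison, and of Notch2, Notch3, Notch4, Dll1 and Jag2 in High over Low, held under every alternative run. Over all member tests, alternatives other than leaving out a library kept call and direction in 569 cases, gained a call in 32, lost one in 14 and turned direction in 6, and leaving out single libraries gave 709, 9, 33 and 5. Counts of genes called moved in the smaller steps. In HiMed over MedLow the 2352 genes called became 1526 with limma on log2(TPM + 1), 1512 on log2(TPM + 0.1) and 1210 on log2(TPM + 1) with no filter, and from 1370 to 2521 without single libraries, the lowest without MedLow replicate 2. The 2 members called there became 4 with no filter, with DESeq2 and with those 6 libraries alone, and 2 to 3 without single libraries. In MedLow over Low the 1151 genes called became 704, 663 and 588 in the same TPM fits, and from 677 to 1318 without single libraries (677 without MedLow replicate 3, 714 without MedLow replicate 1, 750 without Low replicate 1 and 742 without Low replicate 3). The 2 members called there became 4 with no filter, DESeq2 or 6 libraries alone, 1 in the 3 TPM fits, and 1 to 3 without single libraries (1 without MedLow replicate 1 or 3 or Low replicate 2 or 3). Directions turned only in values that did not pass: Jag1 in High over Low (-0.02) was 0.05 with library size only, 0.24 in the 3 TPM fits, and -0.07 to 0.06 without single libraries (0.02 without Low replicate 1), Notch4 in MedLow over Low was -0.02 on log2(TPM + 1) with or without the filter, Notch2 in HiMed over MedLow ran from -0.06 to 0.15 (-0.01 without MedLow replicate 2), and Notch3 there from -0.18 to 0.02. The cause was not tested. The replicate block changed 4 of the 63 member calls, given beside the results, and no other. Scalings moved the split of higher and lower calls by over 10 percentage points in 3 further comparisons: in HiMed over MedLow, library size only gave 1526 higher and 798 lower, and the TPM fits gave 863 to 1103 higher and 347 to 423 lower, beside 1286 and 1066, in High over HiMed, 1830 to 2104 higher and 845 to 1109 lower in the TPM fits, beside 1840 and 2018, and in High over MedLow, 3744 to 4151 higher and 1571 to 1846 lower, beside 3167 and 3454. Depth limits Notch4 in the 3 dimmer bins, Dll3 in Low and Dll4 in every bin, with at most 79, 96 and 218 counts a library. Notch4 in High over Low, 5.58, was 3.69 on log2(TPM + 0.1) and 6.40 without Low replicate 3.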

Other observations

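High replicate 3 had the lowest Notch1 (33.8 TPM), Jag1 (73.0 TPM) and Jag2 (33.0 TPM) of the 3 High libraries and the highest Notch2 (43.6 TPM) and Notch3 (76.1 TPM). The same library had the least Krt5, a keratin of basal cells, of the 3 High libraries, with 2581 TPM beside 3516 and 4037 TPM. Set against the library of the same replicate number, Dll3 and Dll4 were higher in High than in Low in 3 of 3 replicates, although neither passed the test in that comparison. Jag1 was higher in High than in Low in 1 of 3 replicates and lower in 2.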
